A study of Mus musculus with 4 samples.

Results

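TNF superfamily ligands are small trimeric proteins that T cells display or release to instruct neighbouring cells. The 9 ligand genes described here, Tnf, Lta, Ltb, Tnfsf8, Tnfsf10, Tnfsf11, Tnfsf14, Fasl and Cd40lg, were taken by symbol from a read count table of 19044 mouse genes. All 9 had a row, and 8 of them reached a mean of 5 CPM (counts scaled to the size of the library) over the libraries and were tested. Fasl, at a mean of 4.99 CPM, did not. The libraries came from untreated regulatory T (Treg) cells, which carry Foxp3 and hold other immune cells in check, of mouse spleen and peripheral lymph nodes. Mice with both floxed Ripk1 alleles and the Foxp3-YFP-Cre allele, labelled Ripk1 knockout, were set against mice with Foxp3-YFP-Cre alone, labelled WT. Each genotype gave 1 aTreg and 1 rTreg library, 2 names that the labels do not spell out and that are kept as written. Every library therefore carries the Cre allele, which is driven by Foxp3 and acts in Foxp3-expressing cells. The sources used here state neither the age, sex and number of the mice nor the sort gate.

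As background, TNF and lymphotoxin-alpha both bind the receptors TNFR1 and TNFR2, and lymphotoxin-beta joins lymphotoxin-alpha in a membrane complex that signals through the lymphotoxin-beta receptor and shapes lymphoid tissue. Fas ligand and TRAIL (Tnfsf10) bind death receptors that recruit FADD. RIPK1, the kinase and scaffold that the mice were bred to lose, acts downstream of TNFR1 and of these death receptors. LIGHT (Tnfsf14), CD40 ligand, CD30 ligand (Tnfsf8) and RANKL (Tnfsf11) are best known for costimulating or maturing other lymphoid, dendritic or stromal cells.

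The 4 libraries held between 17588754 and 20868319 counts. Ripk1 itself was at 80.8 CPM in aTreg carrying the knockout label and 77.5 CPM in WT aTreg, and at 84.7 CPM in rTreg carrying that label and 83.6 CPM in WT rTreg. Counts over the whole gene were thus not lower under the knockout label, although they check a deletion of some exons only weakly. Those libraries are named KO-labelled here for that reason. Foxp3 lay between 619 and 693 CPM in the 4 libraries. B cell markers summed to 22.9 CPM in KO-labelled aTreg and 25.3 in WT aTreg, against 18.3 in KO-labelled rTreg and 15.2 in WT rTreg. Myeloid and dendritic cell markers summed to 14.3 to 21.9 CPM, to which Cd68 alone gave 12.2 to 14.4 CPM. Itgam was higher in the KO-labelled libraries. It had 2.03 CPM in KO-labelled aTreg and 0.291 in WT aTreg, 2.78 in KO-labelled rTreg and 0.715 in WT rTreg. The remaining myeloid markers lay between 0 and 1.42 CPM. Among them, Itgax was higher with the knockout label in aTreg (1.33 CPM against 0) and rTreg (0.852 against 0.0953). So were S100a8 (0.480 against 0.0486 in aTreg, 0.909 against 0 in rTreg) and, in rTreg, S100a9 (1.42 against 0). The other genotype ratios of these markers lay within counting error. The part of B, myeloid or dendritic cells in the genotype and state values was not tested. With 1 library per combination, a ratio of 2 libraries has no replicate check. Its bracketed 95% interval covers counting error only, and may be too narrow even for that, since PCR copies are not independent molecules.

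Of the 8 tested ligand genes, 6 rose in aTreg over both genotypes, namely Tnf, Tnfsf14, Tnfsf11, Cd40lg, Tnfsf10 and Ltb, where 8.0% of all 9680 tested genes did, and none fell, where 5.50% did. Tnf and Tnfsf14 moved most, by 1.16 (SE 0.152) and 1.31 (SE 0.184) log2 units. In the KO-labelled libraries 3 of the 8 fell relative to WT, Tnfsf11, Tnfsf14 and Cd40lg, where 22.9% of all tested genes did, and 1, Lta, rose, where 24.5% did. Each of the 6 that rose in aTreg had its highest level of all libraries in WT aTreg. The lowest level of 5 genes, Tnfsf8, Tnfsf11, Tnfsf14, Fasl and Cd40lg, was in KO-labelled rTreg. Genes picked for a call higher in aTreg are likely by that choice to peak in an aTreg library. The share of all tested genes with the same highest or lowest library was not counted. "Rose" and "fell" mark calls of edgeR's quasi-likelihood test with state and genotype as additive terms, at a Benjamini-Hochberg adjusted p under 0.05 over 9680 genes. That fit leaves 1 residual degree of freedom, and any state-dependent genotype effect enters its error. It adds 12.1 prior degrees of freedom borrowed from the scatter of all tested genes. Its p-values thus rest on no biological replicate.

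**Figure D1:**
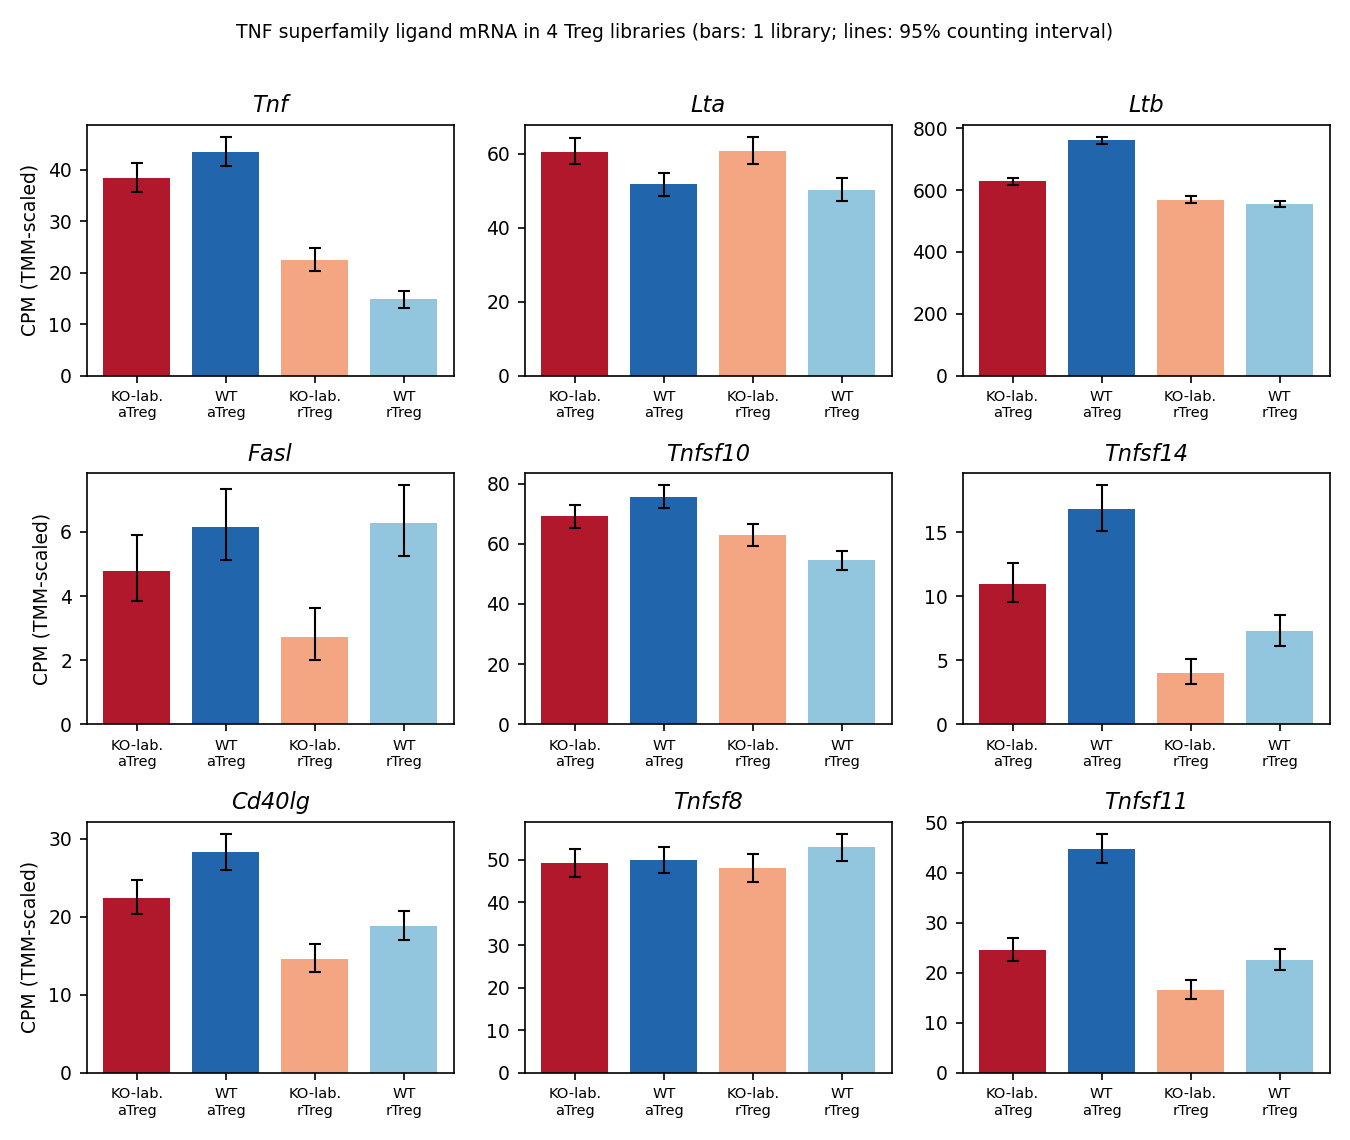
Level of each ligand gene (TMM-scaled CPM, linear axes from 0) in KO-labelled aTreg, WT aTreg, KO-labelled rTreg and WT rTreg; each bar is 1 library and each line its 95% Poisson counting interval. Tnf stands at 38.3 and 43.5 CPM in the aTreg libraries against 22.4 and 14.8 CPM in the rTreg libraries, while Lta and Tnfsf8 are nearly level across states.

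Levels between genes were compared per kilobase of exon. Ltb was by far the most abundant, at 415 CPM per kilobase in KO-labelled aTreg, 502 in WT aTreg, 375 in KO-labelled rTreg and 367 in WT rTreg. It alone took between 69.2% and 71.0% of the summed CPM of the 9 genes in each library, a sum of 909 CPM in KO-labelled aTreg and 1078 in WT aTreg, against 800 in KO-labelled rTreg and 783 in WT rTreg. Lta came next, with a mean of 40.4 CPM per kilobase and a range over the libraries of 36.3 to 44.0. Tnf (mean 18.1 CPM per kilobase), Cd40lg (16.8), Tnfsf8 (13.1), Tnfsf10 (12.4) and Tnfsf11 (12.1) followed, with ranges over the 4 libraries that overlap. Within each library Cd40lg lay above Tnfsf11, while every other pair of these genes changed order between libraries. Tnfsf14 (mean 5.29 CPM per kilobase) and Fasl (mean 2.58 CPM per kilobase) were lowest. Their ranges overlap, but Tnfsf14 lay above Fasl within each library.

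**Figure D2:**
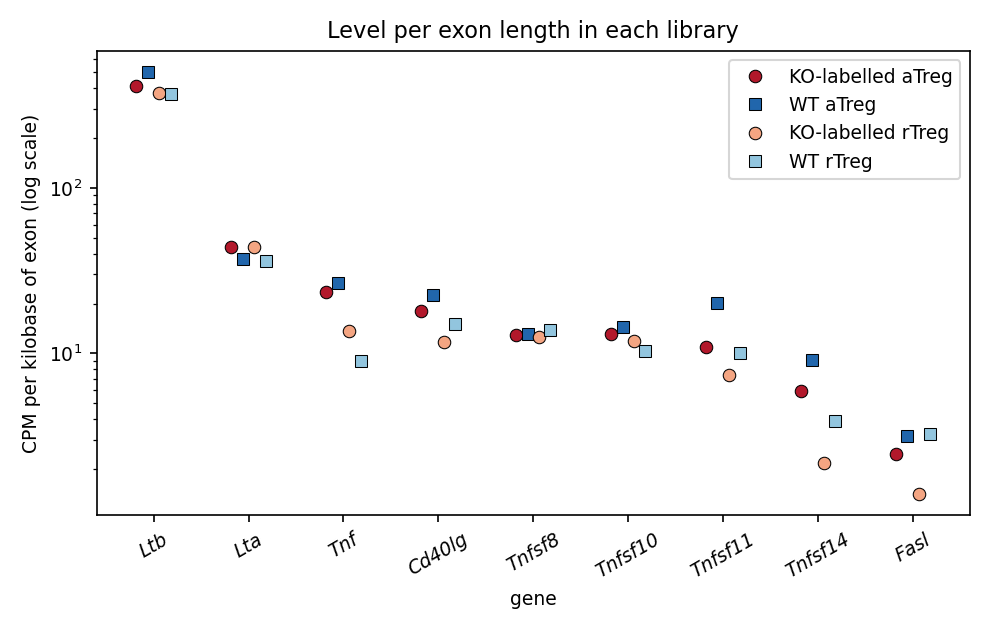
Level per kilobase of exon (CPM per kilobase, log axis) of the 9 ligand genes in descending order of their mean, with 1 point per library; circles are KO-labelled and squares WT. Ltb lies between 367 and 502 CPM per kilobase in every library, above all other members, and Fasl lies between 1.41 and 3.25.

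Ltb, Tnf and Lta are neighbours on chromosome 17, within 10913 bases of the mouse build GRCm38. Ltb (35194439 to 35196320) lies on the plus strand, 3060 bases from Tnf (35199381 to 35202007, minus strand), and Lta (35203165 to 35205351, minus strand) starts 1157 bases beyond Tnf. All 3 are protein coding, and the annotation places a miRNA gene inside Lta and another inside Ltb, but no other protein-coding gene over them. Their RefSeq promoter windows, from 250 bases before to 50 bases after the start, are shown because adjacent genes behaved differently, with that of Tnfsf14, which had the largest state effect of the tested ligands. Capitals mark matches, on either strand, to the NF-kappaB consensus, the AP-1 site TGANTCA, the NFAT core GGAAA and the box TATAAA.
Tnf promoter, chr17:35201958-35202257, minus strand: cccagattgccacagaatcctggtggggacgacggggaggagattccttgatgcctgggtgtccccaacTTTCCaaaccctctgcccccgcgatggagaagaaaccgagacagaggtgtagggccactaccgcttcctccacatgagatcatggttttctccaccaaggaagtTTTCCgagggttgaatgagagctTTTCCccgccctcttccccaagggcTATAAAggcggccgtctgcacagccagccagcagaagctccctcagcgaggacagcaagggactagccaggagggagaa
Lta promoter, chr17:35205302-35205601, minus strand: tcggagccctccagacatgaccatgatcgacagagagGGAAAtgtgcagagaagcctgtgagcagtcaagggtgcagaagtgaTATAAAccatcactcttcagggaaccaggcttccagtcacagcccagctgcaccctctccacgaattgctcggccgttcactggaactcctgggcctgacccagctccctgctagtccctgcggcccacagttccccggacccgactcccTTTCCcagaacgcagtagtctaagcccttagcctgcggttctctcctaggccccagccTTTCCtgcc
Ltb promoter, chr17:35194257-35194556, plus strand: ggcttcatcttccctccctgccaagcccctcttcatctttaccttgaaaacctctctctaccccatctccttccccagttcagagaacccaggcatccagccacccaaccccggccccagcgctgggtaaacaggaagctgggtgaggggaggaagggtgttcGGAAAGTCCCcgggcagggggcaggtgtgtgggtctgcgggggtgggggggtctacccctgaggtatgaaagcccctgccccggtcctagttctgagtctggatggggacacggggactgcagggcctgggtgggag
Tnfsf14 promoter, chr17:57194132-57194431, minus strand: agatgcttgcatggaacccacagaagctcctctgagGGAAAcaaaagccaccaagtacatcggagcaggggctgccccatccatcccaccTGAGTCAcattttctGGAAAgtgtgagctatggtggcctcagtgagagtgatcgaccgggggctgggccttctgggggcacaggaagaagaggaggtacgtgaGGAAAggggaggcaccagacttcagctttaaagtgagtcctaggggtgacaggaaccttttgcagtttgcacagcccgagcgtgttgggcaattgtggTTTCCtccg
The Tnf window held TATAAA at -29 to -24 and 3 NFAT cores, and no NF-kappaB match. The Ltb window held a match to the NF-kappaB consensus at -87 to -78, which overlaps its only NFAT core, and that of Tnfsf14 held an AP-1 match at -160 to -154. Among 32851 promoter windows of the same length, 8.46% held the NF-kappaB consensus, 7.81% the AP-1 site, 61.3% the NFAT core and 13.6% TATAAA. A match describes letters only and shows no binding.

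Tnf, the founding inflammatory ligand of the family, had 38.3 CPM in KO-labelled aTreg and 43.5 CPM in WT aTreg, against 22.4 CPM in KO-labelled rTreg and 14.8 CPM in WT rTreg. Both aTreg libraries lay above both rTreg libraries. The log2 ratio of aTreg over rTreg was 0.77 [0.59 to 0.95] in the KO-labelled pair and 1.55 [1.37 to 1.75] in WT, and Tnf rose (edgeR adjusted p = 2.41e-04). Between genotypes it went opposite ways, at -0.18 [-0.33 to -0.04] in aTreg and 0.60 [0.38 to 0.82] in rTreg, KO-labelled over WT, and the additive test did not call it (edgeR adjusted p = 0.377).

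Lta had 60.5 CPM in KO-labelled aTreg and 51.7 CPM in WT aTreg, against 60.8 CPM in KO-labelled rTreg and 50.2 CPM in WT rTreg. Both KO-labelled libraries were above both WT libraries, and the states were level. The log2 ratio of KO-labelled over WT was 0.23 [0.11 to 0.35] in aTreg and 0.28 [0.15 to 0.40] in rTreg. With the knockout label Lta rose by 0.25 (SE 0.0766) on the log2 scale (edgeR adjusted p = 0.0157), with a state effect of 0.02 (SE 0.0766, edgeR adjusted p = 0.921).

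Ltb, the membrane partner of lymphotoxin-alpha, had 630 CPM in KO-labelled aTreg and 761 CPM in WT aTreg, against 568 CPM in KO-labelled rTreg and 556 CPM in WT rTreg. WT aTreg stood above the other 3 libraries. The log2 ratio of KO-labelled over WT was -0.27 [-0.31 to -0.24] in aTreg and 0.03 [-0.01 to 0.07] in rTreg, the second within counting error. In aTreg Ltb rose by 0.30 (SE 0.0798) on the log2 scale, with edgeR adjusted p = 0.0239, but it was not called for genotype (edgeR adjusted p = 0.228). Per kilobase there was 9.49 times as much Ltb as Lta in KO-labelled aTreg and 13.4 times as much in WT aTreg. In rTreg the same ratio was 8.53 in the KO-labelled library and 10.1 in WT.

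The 3' untranslated region of Tnf carries AU-rich repeats, known sites through which decay factors of the ZFP36 family shorten the life of cytokine mRNA. The reference transcript held 8 copies of the pentamer ATTTA and 5 copies of the nonamer TTATTTATT in 764 bases, overlapping copies counted. The 30-base stretch with most pentamers, 5 of them in capitals, is shown as an example of such repeats.
Tnf AU-rich stretch, chr17:35199679-35199708, minus strand: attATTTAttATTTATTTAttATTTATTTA
Lta had 3 pentamers and 1 nonamer, and the other 7 ligand genes had no nonamer. Pentamers were not particular to Tnf and Lta, with 10 in 2799 bases of Tnfsf8, 8 in 3998 of Tnfsf10 and 6 in 1131 of Tnfsf11. Cd40lg had 2, Tnfsf14 and Fasl 1 each, and Ltb 0. Of 20831 genes with such a region, 65.8% held the pentamer and 7.72% the nonamer.

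Fasl, the ligand of the death receptor Fas (chromosome 1, 161780689 to 161788495, minus strand), had 4.80 CPM in KO-labelled aTreg and 6.17 CPM in WT aTreg, against 2.73 CPM in KO-labelled rTreg and 6.29 CPM in WT rTreg. The KO-labelled rTreg library, with 48 counts, was the lowest, and both KO-labelled libraries were below both WT libraries. The log2 ratio of KO-labelled over WT was -0.36 [-0.77 to 0.04] in aTreg, within counting error, and -1.18 [-1.71 to -0.72] in rTreg. That of aTreg over rTreg was 0.79 [0.29 to 1.35] in the KO-labelled pair and -0.03 [-0.39 to 0.33] in WT. With the level minimum lowered to a mean of 1 CPM, which brings Fasl in among 11810 genes, edgeR gave a genotype effect of -0.76 (SE 0.261, adjusted p = 0.0295), where 21.2% of all genes were called lower. An NK cell marker list, with rows for 6 of its 9 genes and of which Gzma and Prf1 Treg cells can also express, summed to 32.1 CPM in KO-labelled aTreg and 6.26 in WT aTreg, and to 22.2 CPM in KO-labelled rTreg and 6.62 in WT rTreg, and its part in the Fasl values was not tested. Gzma, Prf1 and Eomes, at 0.286 to 12.3 CPM, were higher in both KO-labelled libraries. Klrb1c, at 1.39 CPM in KO-labelled aTreg and 2.33 CPM in WT aTreg, against 0.284 CPM in KO-labelled rTreg and 0.620 CPM in WT rTreg, was lower in both, and Klrk1 and Klrd1 stayed under 1 CPM in all 4 libraries. Bulk RNA cannot separate fewer cells making a transcript from less transcript per cell.

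Tnfsf10, which encodes TRAIL (chromosome 3, 27317028 to 27342427, plus strand), had 69.1 CPM in KO-labelled aTreg and 75.6 CPM in WT aTreg, against 62.9 CPM in KO-labelled rTreg and 54.5 CPM in WT rTreg. It rose in aTreg by 0.31 log2 units (SE 0.0850, edgeR adjusted p = 0.0300). Its genotype ratio was -0.13 [-0.24 to -0.02] in aTreg and 0.21 [0.09 to 0.33] in rTreg, opposite in sign as for Tnf, and the additive test gave 0.03 (SE 0.0850, edgeR adjusted p = 0.765).

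Tnfsf14, which encodes LIGHT, a ligand of HVEM and the lymphotoxin-beta receptor (chromosome 17, 57189492 to 57194177, minus strand), had 11.0 CPM in KO-labelled aTreg and 16.8 CPM in WT aTreg, against 4.03 CPM in KO-labelled rTreg and 7.24 CPM in WT rTreg. Both aTreg libraries lay above both rTreg libraries, with a 4.17-fold span from the highest to the lowest, the widest of the 9 genes. aTreg exceeded rTreg by 1.42 [1.05 to 1.86] log2 units in the KO-labelled pair and 1.20 [0.93 to 1.5] in WT (edgeR adjusted p = 3.88e-04). KO-labelled over WT was -0.61 [-0.87 to -0.36] in aTreg and -0.83 [-1.27 to -0.43] in rTreg, and Tnfsf14 fell by 0.71 (SE 0.183, edgeR adjusted p = 0.00632).

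Tnfsf11, which encodes RANKL, the osteoclast and dendritic cell factor (chromosome 14, 78277445 to 78308043, minus strand), had 24.6 CPM in KO-labelled aTreg and 44.8 CPM in WT aTreg, against 16.6 CPM in KO-labelled rTreg and 22.5 CPM in WT rTreg. WT aTreg stood well above the other 3 libraries, and KO-labelled rTreg was lowest. The ratio of aTreg over rTreg was 0.56 [0.35 to 0.78] in the KO-labelled pair and 0.99 [0.83 to 1.15] in WT (edgeR adjusted p = 8.60e-04). KO-labelled over WT was -0.86 [-1.03 to -0.70] in aTreg and -0.44 [-0.66 to -0.23] in rTreg, and Tnfsf11 fell by 0.67 (SE 0.124, edgeR adjusted p = 6.42e-04).

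Cd40lg, the T cell help signal to CD40 on B cells and dendritic cells (chromosome X, 57212143 to 57224042, plus strand), had 22.4 CPM in KO-labelled aTreg and 28.3 CPM in WT aTreg, against 14.6 CPM in KO-labelled rTreg and 18.8 CPM in WT rTreg. The genotype ratio was nearly the same in both states, at -0.33 [-0.52 to -0.15] in aTreg and -0.37 [-0.60 to -0.14] in rTreg. In aTreg Cd40lg rose by 0.60 (SE 0.122) on the log2 scale, with edgeR adjusted p = 0.00511, and it fell with the knockout label by 0.35 (SE 0.122, edgeR adjusted p = 0.0315). The gene is X-linked, and the X-inactivation RNA Xist had 4 and 5 counts in the KO-labelled aTreg and rTreg libraries, against 6955 and 6271 counts in WT aTreg and rTreg. Y-linked Ddx3y was present in all 4, at 112 and 126 CPM in KO-labelled aTreg and rTreg and 97.4 and 121 CPM in WT aTreg and rTreg. Y-linked Eif2s3y rose with the knockout label by 0.50 (SE 0.0737, edgeR adjusted p = 1.10e-04) and Kdm5d by 0.42 (SE 0.0745, edgeR adjusted p = 4.67e-04). Ddx3y (0.13, SE 0.0679, edgeR adjusted p = 0.135) and Uty (0.11, SE 0.127, edgeR adjusted p = 0.510) were not called. The part of the animals' sex in the Cd40lg difference was not tested, nor that in any other genotype value.

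Tnfsf8, which encodes CD30 ligand (chromosome 4, 63831308 to 63861347, minus strand), varied least of the 9 genes. It had 49.2 CPM in KO-labelled aTreg and 49.9 CPM in WT aTreg, against 48.1 CPM in KO-labelled rTreg and 52.9 CPM in WT rTreg, a 1.10-fold span. The log2 ratio of KO-labelled over WT was -0.02 [-0.15 to 0.11] in aTreg and -0.14 [-0.27 to -0.01] in rTreg. Its effects were -0.03 (SE 0.0825) for state and -0.08 (SE 0.0825) for genotype, with edgeR adjusted p = 0.880 and 0.453.

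**Figure D3:**
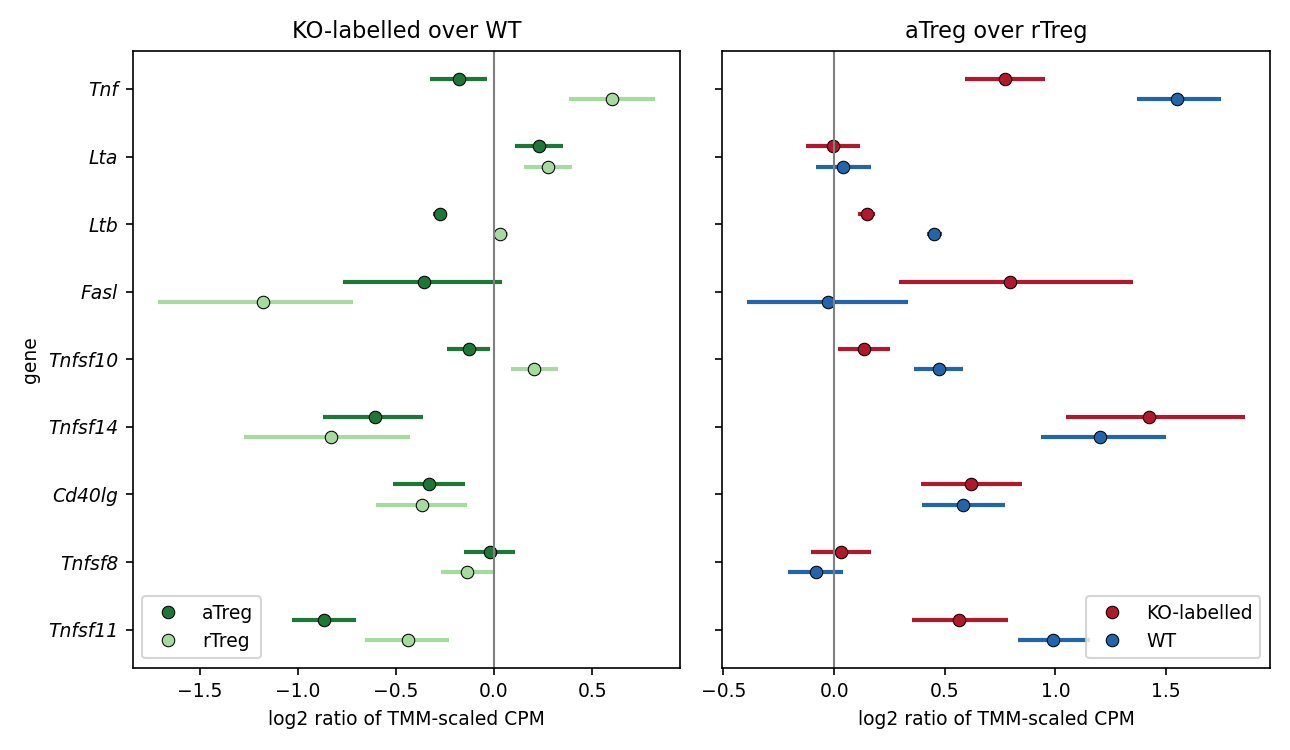
Log2 ratio of TMM-scaled CPM for each ligand gene, KO-labelled over WT in aTreg and rTreg (left) and aTreg over rTreg in the KO-labelled and WT pairs (right); points are ratios of 2 libraries and lines 95% counting intervals. Tnf and Tnfsf10 lie on opposite sides of 0 in aTreg and rTreg on the left, whereas Tnfsf14, Tnfsf11 and Cd40lg lie below 0 in both.

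The state comparison asks how ligand mRNA differs between aTreg and rTreg. The 6 calls among 8 tested ligand genes stood against 13.5% of all tested genes called in either direction. Their median log2 ratio was 0.36 in the KO-labelled pair and 0.53 in WT, against 0.00 over all tested genes in both pairs. At least 2-fold higher in aTreg were 1 of 8, Tnfsf14, in the KO-labelled pair, where 0.950% of genes were, and 2 of 8, Tnf and Tnfsf14, in WT, where 1.87% were. DESeq2 with the same terms called Tnf, Tnfsf11 and Tnfsf14 higher, where 2.99% of all genes were, but not Cd40lg (adjusted p = 0.108), Ltb (0.0777) or Tnfsf10 (0.389). With state as the only term, so that the genotypes count as replicates, edgeR called 0 of 9680 genes, against 328 at an unadjusted p under 0.05.

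The genotype comparison was designed to ask what the loss of RIPK1 in Foxp3-expressing cells changes. Of the 8 tested ligand genes 4 were called, where 47.3% of all tested genes were, so the share called is close to that of the whole table. The libraries also differ by genotype in Xist, and the part of sex cannot be told apart from that of genotype. With genotype as the only term and WT aTreg left out, the effects of Tnfsf11, Tnfsf14 and Cd40lg were -0.15, 0.04 and -0.04. That fit sets both KO-labelled states against WT rTreg alone. Since these genes rose in aTreg, it cannot separate genotype from state. Within rTreg their log2 ratios of KO-labelled over WT were -0.44, -0.83 and -0.37 in the same order. Over the 8 tested ligand genes the median log2 ratio of KO-labelled over WT was -0.23 in aTreg and -0.05 in rTreg. Over all tested genes it was 0.00 and 0.01. None of the 8 was 2-fold apart in either state, where 6.12% of genes were in aTreg and 4.75% in rTreg. Fasl, not among the 8, was more than 2-fold lower with the knockout label in rTreg, at -1.18 [-1.71 to -0.72]. DESeq2 with the same terms called only Tnfsf11 (adjusted p = 0.00780), which was lower, where 26.1% of genes were called and 12.0% were lower, and edgeR with genotype alone called none of the 8 (16.9% of genes called). In the authors' deposited table none of the 9 had an adjusted p under 0.05, where 16.6% of genes with a value did. The lowest was that of Tnfsf11, at 0.149. The standard error of Tnf there was 0.804, against 0.151 in the additive edgeR fit, 0.223 in the additive DESeq2 fit and 0.534 in edgeR with genotype alone. The deposited effect, WT over KO, was -0.07 for Tnf and 0.671 for Tnfsf14. As KO-labelled over WT, edgeR with genotype alone gave 0.06 and -0.675, and the additive edgeR fit 0.17 and -0.709. The deposited comparison may thus hold other terms than the additive fit.

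**Figure D4:**
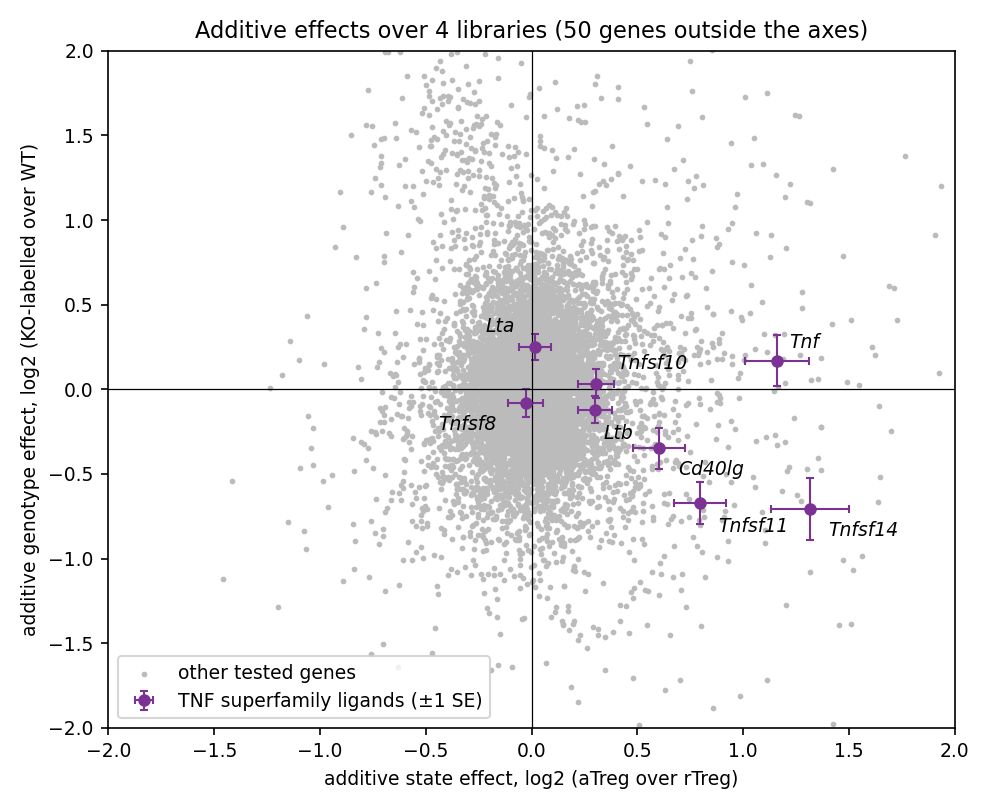
Additive state effect (x axis, log2 of aTreg over rTreg) against additive genotype effect (y axis, log2 of KO-labelled over WT) for all tested genes, with the 8 tested ligand genes in purple and bars of 1 SE; 50 genes lie outside the axes. Tnfsf14, Tnfsf11 and Cd40lg share the lower right corner, with positive state and negative genotype effects, and Tnf lies at 1.16 and 0.17.

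The genotype ratio differed between the states beyond counting error for 4 of the 8 tested ligands, where 33.9% of all tested genes did, and for Fasl. No test could address this difference because it uses up all 4 libraries. The ratio in aTreg minus that in rTreg was -0.78 [-1.04 to -0.53] for Tnf, and 1.89% of tested genes had a larger absolute difference. It was -0.42 [-0.69 to -0.16] for Tnfsf11, -0.34 [-0.50 to -0.18] for Tnfsf10 and -0.31 [-0.36 to -0.25] for Ltb, and larger in 9.88%, 15.4% and 18.0% of tested genes in that order. For Fasl it was 0.82 [0.23 to 1.46], with 1.59% of tested genes larger, while for Lta, Tnfsf8, Tnfsf14 and Cd40lg the interval included 0. The median absolute difference over all tested genes was 0.13.

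Related genes were counted in the same way, against 8.0% of all tested genes that rose and 5.50% that fell in aTreg, and 24.5% that rose and 22.9% that fell with the knockout label. The median effect over all tested genes was 0.00 for both terms. Of 7 tested receptor genes, 2 rose in aTreg, none fell, and with the knockout label 1 rose and 2 fell, near the 47.3% of all genes called. Their median effect was 0.03 for state and -0.15 for genotype. Tnfrsf1b, which encodes TNFR2, the TNF receptor best known on Treg cells, had 425 CPM in KO-labelled aTreg and 413 CPM in WT aTreg, against 286 CPM in KO-labelled rTreg and 208 CPM in WT rTreg. It rose both in aTreg (0.78, SE 0.0887, edgeR adjusted p = 7.89e-05) and with the knockout label (0.25, SE 0.0883, edgeR adjusted p = 0.0341). Tnfrsf8, the CD30 gene, rose in aTreg by 1.70 (SE 0.215, edgeR adjusted p = 1.81e-04), though its ligand Tnfsf8 was level. Tnfrsf1a, which encodes TNFR1 (-0.35, SE 0.106, edgeR adjusted p = 0.0165), and Tnfrsf10b, the mouse TRAIL receptor (-0.46, SE 0.160, edgeR adjusted p = 0.0308), fell with the knockout label. Ltbr, Tnfrsf11a and Cd40, receptors of lymphotoxin-beta, RANKL and CD40 ligand, stayed at or under 1.01 CPM in all 4 libraries. The other TNF superfamily ligands were scarce too, the highest being Tnfsf9 (4-1BB ligand) at 4.74 CPM in KO-labelled aTreg and 2.86 CPM in WT aTreg, against 3.97 CPM in KO-labelled rTreg and 2.0 CPM in WT rTreg.

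Of 6 tested genes whose products cut ligands from the membrane or help to, 3 rose and 1 fell with the knockout label, and 2 rose and none fell in aTreg. The 4 genotype calls among 6 stand against 47.3% of all genes, and the median effect was 0.18 for genotype and 0.13 for state. With the knockout label Adam17, which cleaves TNF from the cell surface, rose by 0.30 (SE 0.0652, edgeR adjusted p = 0.00186), and Rhbdf2, which carries ADAM17 to the surface, by 0.46 (SE 0.128, edgeR adjusted p = 0.0104). Of 10 genes that control cytokine mRNA decay, 5 fell with the knockout label, where 22.9% of all genes did, none rose, and 2 rose in aTreg. The 5 calls among 10 are near the 47.3% of all genes called, with a median effect of -0.25 for genotype and 0.02 for state. Zfp36l2 fell by 1.05 (SE 0.0752, edgeR adjusted p = 2.74e-07) and Zfp36l1 by 0.78 (SE 0.0923, edgeR adjusted p = 1.84e-05). Zfp36, the factor best known for Tnf mRNA decay, rose in aTreg by 0.68 (SE 0.109, edgeR adjusted p = 0.00105) and was not called for genotype (-0.20, SE 0.109, edgeR adjusted p = 0.154).

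Of 15 tested transcription factor genes known to act on ligand genes in T cells, 9 rose and 1 fell in aTreg, where 8.0% and 5.50% of all genes did, and 3 rose and 7 fell with the knockout label, where 24.5% and 22.9% did. Their median effect was 0.38 for state and -0.06 for genotype. Egr1 and Fos, made early after T cell receptor engagement, were highest in WT aTreg. Egr1 had 247 CPM in KO-labelled aTreg and 916 CPM in WT aTreg, against 161 CPM in KO-labelled rTreg and 164 CPM in WT rTreg. Fos had 310 CPM in KO-labelled aTreg and 719 CPM in WT aTreg, against 234 CPM in KO-labelled rTreg and 335 CPM in WT rTreg. These genes also respond to the handling of cells, and their part in the ligand differences was not tested. Tbx21, the gene of T-bet, rose with the knockout label by 3.09 (SE 0.177, edgeR adjusted p = 6.49e-08). Of 16 tested TNF-induced genes, 8 rose in aTreg, where 8.0% of all genes did, and none fell, and 3 rose and 5 fell with the knockout label, near the 47.3% of all genes called. Their median effect was 0.23 for state and -0.07 for genotype. Within that list, Icam1 rose by 0.82 (SE 0.0879, edgeR adjusted p = 7.62e-06) and Bcl3 by 0.82 (SE 0.0670, edgeR adjusted p = 8.50e-07). Cd83 fell by 1.27 (SE 0.188, edgeR adjusted p = 1.11e-04), as did Bcl2a1b, a survival gene, by 0.75 (SE 0.229, edgeR adjusted p = 0.0158). Reads of Bcl2a1b are hard to separate from those of its near copies. Bcl2a1d, a near copy in the same list, was opposite in sign for genotype and not called (0.35, SE 0.158, edgeR adjusted p = 0.084).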

How the data were processed

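Libraries came from total RNA through a SMARTER mRNA kit, per the labels. The submitters' processing notes name HISAT2 2.2.1, featureCounts 2.0.1 and the build GRCm38. The sources used here state no annotation and no strand setting. The deposited counts are whole reads per gene symbol, not normalized by the authors. The authors' second table gives, per the file headers, values after variance stabilisation, close to log2. Their log2 fold change and its error are deposited as WT over KO. Its mean normalized signal and its test statistic, a score, are deposited there too and were not used for any comparison. The deposited p-values, raw and adjusted, belong to the same genotype comparison.

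The 9680 genes tested, with 99.31% of counts, had a mean of 5 CPM or more. Counts were scaled by TMM and fitted with edgeR 4.0.16 in R 4.3.3, state and genotype as additive terms; DESeq2 1.42.0 was an alternative. Ratios are differences of log2 CPM with a prior count of 2, and their intervals are exact binomial ones without it. Levels have Poisson intervals. The interval of a difference of ratios is a normal one from the Poisson variances. A count of 0 allows up to 3 counts, 0.143 to 0.170 CPM here. Tested on simulated counts of 9648 genes, the additive fit recovered 80.6% of genes given a genotype effect of 0.5 log2 units. Those counts held no state effect and no state-dependent genotype effect, with scatter set near the fitted one. The recovery need not hold for the real libraries. Exon lengths, positions and 3' regions come from GENCODE M21, promoters from RefSeq (GRCm38.p6), which held 8 of the 9 genes. The named genes are the 9 ligands, Ripk1, Foxp3, Xist and those of each list with the largest genotype effects. A few more were chosen after their values were seen (Zfp36, Tnfsf9, Ddx3y, Uty, Bcl2a1d, untested receptors and markers). The members and lists were chosen with earlier results of these data known. Alternatives were other scalings, level minima, prior counts, folds, tools and designs.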

Additional observations from a re-analysis of the deposited data

Results flagged for a closer look

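Tnf and Tnfsf10 each had a genotype difference of opposite sign in the 2 states, with both counting intervals clear of 0. For Tnf the log2 ratio of KO-labelled over WT was -0.18 in aTreg and 0.60 in rTreg. For Tnfsf10 it was -0.13 in aTreg and 0.21 in rTreg. The difference between states was not tested, since each ratio rests on 1 library per group.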

How the results depend on the processing

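Scaling by DESeq2 size factors, upper quartile or library totals, a mean of at least 1 CPM and no level minimum all left 4 called ligands for genotype and 6 for state among the 8 tested. At a mean of at least 1 CPM Fasl was tested too and called lower for genotype. That made 5 of 9 ligands called for genotype, where 43.0% of genes were. Upper-quartile scaling turned the uncalled genotype effect of Tnfsf10, at -0.0123, and the ratio of Ltb in rTreg, KO-labelled over WT, at -0.02. The deposited stabilised values turned the difference of the genotype ratio of Tnfsf14 between states, at -0.0081. DESeq2 with both terms called 2527 genes for genotype with 1 ligand and 423 for state with 3 ligands. The tested factor alone called 1633 genes for genotype and 0 for state, and 0 ligands for either. With the factor alone and 1 library left out, which mixes states or genotypes unequally, 1 gene was called for genotype without KO-labelled rTreg or KO-labelled aTreg, 1525 without WT rTreg and 1504 without WT aTreg, with 0 to 1 ligands. For state 0 genes and 0 ligands were called. The genotype effect of Tnf was then -0.51 without WT rTreg, -0.38 without KO-labelled aTreg and 1.02 (edgeR adjusted p = 0.0270) without WT aTreg. Other signs that turned in those fits were Tnfsf10 (-0.19 without WT rTreg and -0.0487 without KO-labelled aTreg), Ltb (0.0924) and Tnfsf14 (0.0386), both without WT aTreg. The 3 called lower effects moved too, to between -1.12 (without WT rTreg) and -0.15 (without WT aTreg) for Tnfsf11, between -0.69 (without KO-labelled aTreg) and -0.04 (without WT aTreg) for Cd40lg, and down to -1.57 for Tnfsf14 without KO-labelled aTreg. For state the signs that turned were Lta (-0.12 without WT rTreg, -0.10 without KO-labelled aTreg) and Tnfsf8 (0.0362 without WT rTreg).

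Genes at least 1.5-fold apart numbered 1720 (KO-labelled over WT in aTreg), 1419 (in rTreg), 438 (aTreg over rTreg, KO-labelled) and 724 (WT). With a mean of at least 1 CPM, 1057, 882, 319 and 550 were 2-fold apart in the same order, and 164, 84, 17 and 33 on the deposited stabilised values, where low genes are compressed. The genotype ratio differed between states by at least 1 log2 unit in 77 genes, against 1 on the deposited values. No paired analysis was possible because the labels carry no replicate numbers. An interaction could not be tested because no library is replicated. Low depth limits Fasl most, with 48 to 132 counts.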

Other observations

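For each tested ligand, the genes nearest to it in pattern were those with the smallest Euclidean distance between log2 CPM profiles over the 4 libraries, each centred on its own mean. Tnf was nearest to Cst7 (distance 0.145), which encodes the protease inhibitor cystatin F, and to the receptor kinase gene Axl (0.185). Cst7 had 52.5 CPM in KO-labelled aTreg and 54.1 CPM in WT aTreg, against 31.2 CPM in KO-labelled rTreg and 21.0 CPM in WT rTreg. Tnfsf11 was nearest to Nrn1 (0.0791), the neuritin gene, and to Fosb (0.115), an AP-1 subunit gene. Tnfsf14 was nearest to the chemokine receptor gene Ccr9 (0.252) and to Sspo (0.275). Ltb was nearest to Abhd6 (0.0167) and Socs3 (0.0351), and Tnfsf10 to Sertad1 (0.00725) and Rrp1b (0.0266). Cd40lg was nearest to 1700030K09Rik (0.0880) and P4htm (0.0945). The flat profiles of Lta and Tnfsf8 were within 0.2 of 1560 and 2029 tested genes, so their neighbours, Hspa4 and Spcs2 for Lta and Baz2a and Pak2 for Tnfsf8, single nothing out. Ltb and Tnfsf10, with 265 and 229 genes within the same distance, are little more specific. Cd40lg had 25 such genes, Tnfsf11 had 9, Tnf had 3 and Tnfsf14 had 0. A likeness over 4 libraries is a description only.

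Of the 8 promoter windows read, those of Tnf, Lta and Tnfsf11 held TATAAA on either strand, and the 8 all held an NFAT core. Neither the Egr site GCGNGGGCG nor the interferon-response element GAAANNGAAA was found in these windows, against 5.55% and 3.44% of all windows.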
